A study of Mus musculus with 10 samples.

Results

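Mitochondrial ribosomal protein genes were examined in the telencephalon of mouse embryos that carry mutations of Polr1a. Members were all genes whose symbol is Mrpl or Mrps followed by a number and an optional letter, 76 of the 14796 named genes in the deposited table. Of these, 47 have Mrpl symbols, given to the large subunit of the mitochondrial ribosome, and 29 have Mrps symbols, given to the small subunit. The symbol does not always place the protein: those of Mrps18a and Mrps30 lie in the large subunit, and Mrps36 encodes a subunit of the 2-oxoglutarate dehydrogenase complex. RNA sequencing was carried out on total RNA of 10 telencephalon samples, the part of the embryonic brain that forms the cortex and basal ganglia, taken at embryonic day 12. The groups were 2 samples with a null allele of Polr1a, 2 wild types whose titles begin with Polr_2048 as theirs do, 3 samples with a missense allele that changes the protein at C1559F, and 3 wild types that share the title start Polr_2138 with these. These are called the null set and the missense set. The labels give neither the zygosity of the mutants, nor the meaning of the title numbers, nor whether embryos share a litter or were pooled, so p-values measure only the spread between these samples. Polr1a codes for the large catalytic subunit of RNA polymerase I, which makes the precursor of cytoplasmic ribosomal RNA in the nucleolus.

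The mitochondrial ribosome sits in the matrix and translates the few proteins that mitochondrial DNA encodes, all of them subunits of the respiratory chain and ATP synthase. Its ribosomal RNAs come from mitochondrial DNA and are made by the mitochondrial polymerase Polrmt, not by RNA polymerase I. Its proteins are encoded in the nucleus, made by cytoplasmic ribosomes and imported. One share of them descends from the proteins of bacterial ribosomes, and the rest were added during the evolution of mitochondria.

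The values in the table are log2 levels, on a scale on which the back-transformed levels of every sample sum to nearly the same total. The totals ran from 1000453 to 1000891 over the 10 samples, so the number of reads behind each sample is unknown. Changes are given on the log2 scale as mutant minus wild types of the same title number, from 1 limma fit over all genes, and a gene was called at an adjusted p under 0.05. Polr1a itself had 4.99 and 4.82 in the null samples, against 5.38 and 5.38 in their wild types, a change of -0.48 (SE 0.20; limma adjusted p = 0.563). In the missense samples it had 5.09, 5.66 and 5.79, against 5.62, 5.51 and 5.64 in their wild types. An exact permutation test of Polr1a gave p = 0.333 in the null comparison, the smallest that 2 against 2 allows, and p = 1 in the missense comparison, where the smallest is 0.1. All 11 telencephalon markers were measured. In null samples 3 of them were higher and 8 lower, with a median change of -0.39, and 3 were called lower, Nkx2-1, Dlx1 and Dlx2 (change of Nkx2-1 -1.91; lowest limma adjusted p of the 11 = 0.000369). In missense samples 2 were higher and 9 lower, with a median of -0.20 and none called. The correlation between any 2 samples over all genes lay between 0.938 and 0.964. Over the same comparisons, the 10 markers of microglia and macrophages had a median change of 1.30 in null and 0.41 in missense samples, with 10 and 7 of them higher. The 11 mesenchyme markers had median changes of 0.61 and 0.20, the 10 neuron markers -0.16 and -0.09. The 10 endothelium markers were all higher in null samples, with a median of 0.35, while 4 were higher in missense samples, with a median of -0.02. The 11 erythroid markers had medians of 0.28 and 0.22, with 9 higher in either mutant, and the 10 markers of neural progenitors -0.14 and -0.10. Their part in the results below was not tested, and in such bulk samples fewer cells of a type and less RNA per cell cannot be told apart.

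Members were taken from the rows of the table, which its authors had filtered, so genes of this kind without a row are not counted. All 76 were above 0 on the log2 scale in every sample. The mean log2 level over the 10 samples ran from 2.17 for Mrpl23 to 6.24 for Mrps5, with a median of 5.07 over members and 4.75 over all genes. The back-transformed levels of the large-subunit members summed to 1613 and 1695 CPM (reads scaled to the total of the sample, as far as the values show) in null samples, against 1842 and 1564 in wild types of the null set. They summed to 1603, 1484 and 1623 CPM in missense samples, against 1668, 1535 and 1632 in wild types of the missense set. The small-subunit members summed to 940 and 990 CPM in null samples, against 1118 and 921 in their wild types, and to 931, 847 and 957 in missense samples, against 956, 891 and 1002. Mutants and wild types overlapped for both subunits in both comparisons. The mean sum of the large subunit differed by -2.87% in null and -2.57% in missense samples, that of the small subunit by -5.36% and -3.96%. The SD of the large-subunit sum was 58.0 in null samples and 196 in their wild types (n = 2 each), and 75.5 in missense samples and 68.4 in theirs (n = 3 each). The small-subunit sum averaged 965 ± 35.2 CPM in null samples and 1019 ± 140 in their wild types (SD, n = 2 each), and 912 ± 57.4 in missense samples and 950 ± 55.5 in theirs (SD, n = 3 each). Each difference was smaller than the larger SD of its pair of groups; that of the small subunit in null samples was larger than the SD of the null samples. Without replicate 1 of the wild types of the null set, and so against replicate 2 alone, the null sums differed by 5.74% and 4.8%. Without replicate 2 of the missense samples, the missense sums differed by 0.113% and -0.562%.

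**Figure D1:**
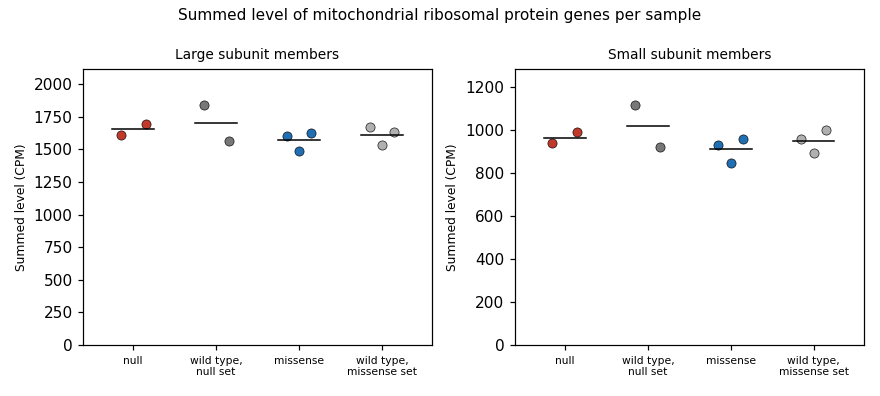
Each point is the summed back-transformed level of the 47 large-subunit members (left) or the 29 small-subunit members (right) in 1 sample, in CPM on the vertical axis, and bars are group means. The highest point in both panels is replicate 1 of the wild types of the null set, at 1842 and 1118 CPM, and mutants overlap with their wild types throughout.

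In null samples, no mitochondrial ribosomal protein gene was called different from wild types, and changes were small. Of the 47 large-subunit members, 18 were higher and 29 lower, with a median change of -0.04 and a range from -0.48 to 0.25. Of the 29 small-subunit members, 11 were higher and 18 lower, with a median of -0.06 and a range from -0.50 to 0.25. The median over all genes was 0.03. No member passed the limma threshold, against 24 of all genes, which is 0.162% of them, and the smallest adjusted p of a member was 0.514. At an unadjusted limma p under 0.05, 0 members were higher and 2 were lower, where 5.04% of all genes were higher and 3.28% lower. The 95% interval of the change lay within 2-fold in either direction for 46 of the 47 large-subunit members, all but Mrpl23, and for 27 of the 29 small-subunit members, all but Mrps16 and Mrps23. It lay within 1.5-fold for 28 and 18 of them.

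The 2 members with the smallest p in null samples were Mrps28 and Mrpl53. Mrps28, a small-subunit protein with a bacterial counterpart, had 3.62 and 3.48 in null samples, against 4.17 and 3.93 in wild types of the null set. Both null samples were below both wild types, with a change of -0.50 (SE 0.20; limma adjusted p = 0.514). Mrpl53, a large-subunit protein particular to mitochondria, had 4.26 and 4.49 in null samples, against 4.78 and 4.69 in their wild types. Its groups did not overlap either, and the change was -0.36 (SE 0.15; limma adjusted p = 0.565). The annotation lists Gm42688, whose transcript shares 695 bases with Mrpl53 on the same strand and which has no row in the table. Without replicate 1 of the wild types, which stands apart as described below, replicate 2 was the only reference left. The changes of Mrps28 and Mrpl53 were then -0.38 and -0.31. Mrps26, also of the small subunit and without a bacterial counterpart, had 4.88 and 4.90 in null samples, against 5.42 and 5.05. Its groups did not overlap, and the change was -0.35 (SE 0.16; limma adjusted p = 0.614). The higher wild-type value, 5.42, is that of replicate 1, and the 5.05 of replicate 2 lay closer to the null samples. The annotation lists a pseudogene copy of Mrps26 that matches it at 96.3% over 433 bases and has no row in the table.

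Of the members that were higher in null samples, Mrpl19, a bacterial-type protein of the large subunit, had 5.67 and 5.40, against 5.36 and 5.21 in wild types. The change of 0.25 (SE 0.19; limma adjusted p = 0.792) was the highest among large-subunit members, and the groups did not overlap. Its transcripts share 1967 bases with those of Gcfc2 on the other strand, and the strand of the library is not given. Mrps27, a pentatricopeptide-repeat protein of the small subunit, had 5.35 and 5.31, against 5.21 and 5.0 in wild types, a change of 0.23 (SE 0.15; limma adjusted p = 0.758). Null and wild-type samples did not overlap for 11 members that were higher and 10 that were lower. These are 14.5% and 13.2% of members, against 22.9% of all genes that were higher without overlap and 14.8% that were lower.

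In missense samples the changes were also small, and none was called. Of the 47 large-subunit members, 17 were higher and 30 lower, with a median of -0.04 and a range from -0.73 to 0.65. Of the 29 small-subunit members, 10 were higher and 19 lower, with a median of -0.03 and a range from -0.43 to 0.29. The median over all genes was 0.02. No member passed the limma threshold, against 3 of all genes, or 0.0203%, and the smallest adjusted p of a member was 0.884. At an unadjusted limma p under 0.05, 1 member was higher and 5 were lower, where 3.2% of all genes were higher and 2.33% lower. The 95% interval lay within 2-fold in either direction for 45 of the 47 large-subunit members, all but Mrpl23 and Mrpl32, and for all 29 small-subunit members.

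Mrpl32, a bacterial-type protein of the large subunit that the m-AAA protease matures after import, had 3.24, 2.97 and 3.41 in missense samples, against 2.76, 2.20 and 2.71 in wild types of the missense set. All 3 missense samples were above all 3 wild types, with a change of 0.65 (SE 0.28; limma adjusted p = 0.893). In the null comparison its groups overlapped, with 3.04 and 2.57 in null samples, against 2.46 and 3.29 in wild types. The annotation lists a pseudogene copy of Mrpl32 that matches it at 95% over 560 bases and has no row in the table.

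The 5 lower members were Mrpl52 and Mrpl43 of the large subunit and Mrps28, Mrps10 and Mrps25 of the small subunit. Mrpl52, particular to mitochondria, had 5.10, 4.64 and 4.80 in missense samples, against 5.26, 5.22 and 5.29 in wild types, a change of -0.41 (SE 0.14). Mrpl43, also particular to mitochondria, had 5.12, 4.80 and 4.92, against 5.30, 5.17 and 5.21, a change of -0.28 (SE 0.12). Both genes were lower in every missense sample than in any wild type. Mrps28 had 3.68, 3.40 and 3.53 in missense samples, against 3.96, 3.90 and 4.04 in wild types, a change of -0.43 (SE 0.16). Mrps10, a bacterial-type protein of the small subunit, had 4.72, 4.75 and 4.49, against 4.98, 5.0 and 5.06, a change of -0.36 (SE 0.13). Mrps25, particular to mitochondria, had 5.73, 5.71 and 5.52, against 6.08, 6.04 and 6.06, a change of -0.41 (SE 0.17). These 3 genes also showed no overlap between missense samples and wild types, and all 5 had a limma adjusted p of 0.884. Transcripts of Mrps25 share 3533 bases with those of Nr2c2 on the other strand, and those of Mrpl43 share 278 bases with Twnk, which has no row in the table. In all, 2 members were higher and 10 lower without overlap, which is 2.63% and 13.2% of members, where 6.02% of all genes were higher and 4.89% lower without overlap.

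**Figure D2:**
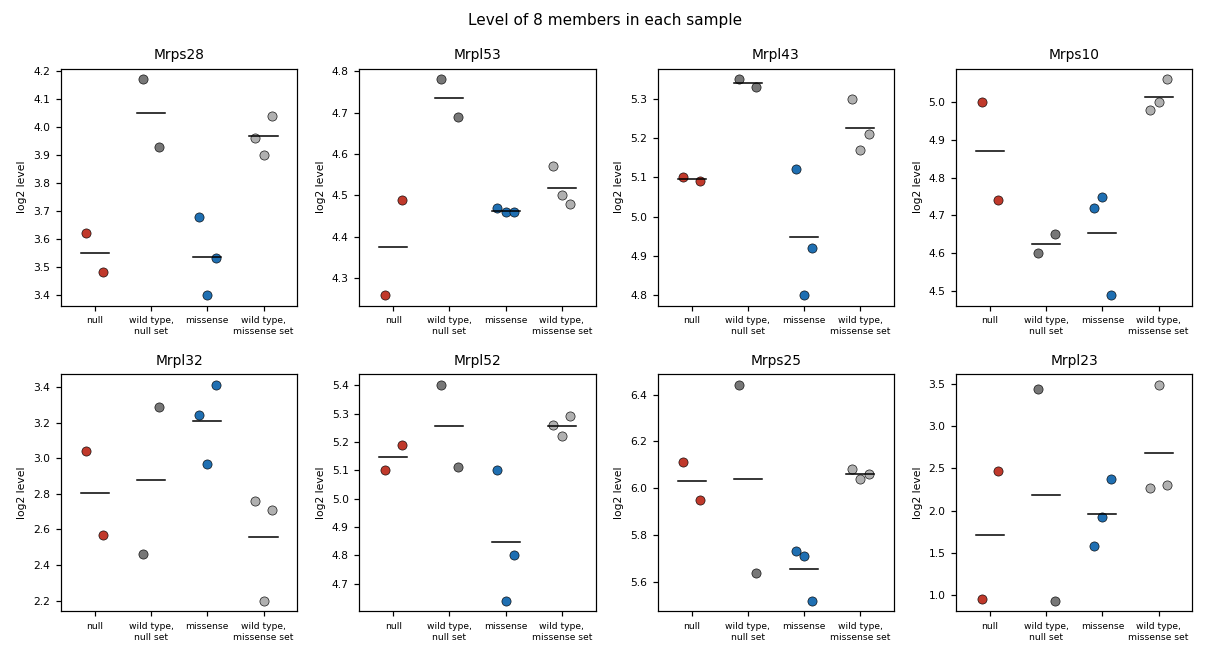
Each panel shows 1 member, with its log2 level on the vertical axis, a point for each sample and a bar for the group mean; the vertical axes differ and do not start at 0. Mrps28, Mrpl53 and Mrpl43 lie below their wild types in all mutant samples, Mrps10 lies above them in null and below them in missense samples, and Mrpl23 spreads widely within every group.

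Both alleles were then set side by side, since the 2 comparisons share no sample. Of the 76 members, 35 were lower in both mutants, 15 were higher in both and 26 had opposite signs, so 65.8% had the same sign, against 59.6% of all genes. Across members, the changes in null and missense samples had a Pearson r of 0.37 and a Spearman rho of 0.34, against 0.10 and 0.21 across all genes. Without Mrpl23 the values over 75 members were 0.28 and 0.31. These are correlations across genes, which are not independent of each other. Both the count and the correlation rested on 1 wild type. Without replicate 1 of the wild types of the null set, replicate 2 was the only reference left for the null changes. Then 15 members were lower in both and 18 higher in both, so 43.4% had the same sign, against 56.8% of all genes. Here r was -0.25 and rho -0.12. Without replicate 2 of the missense samples, 25 were lower and 18 higher in both, or 56.6%, with r 0.33. Without both, 12 were lower and 28 higher in both, or 52.6%, with r -0.23.

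Mrps28, Mrpl43 and Mrpl53 were lower than their wild types in every sample of both mutants, and no member was higher in every sample of both. Among all genes, 1.38% were lower in this way and 2.47% higher. Mrpl43 had 5.10 and 5.09 in null samples, against 5.35 and 5.33, a change of -0.24 (SE 0.14; limma adjusted p = 0.721). Mrpl53 in missense samples had 4.47, 4.46 and 4.46, against 4.57, 4.50 and 4.48, so its groups were separated by 0.01, and the change of -0.05 (SE 0.12) was small. When the mean of both changes was tested, a contrast added after the data had been seen, 40 of all genes passed the limma threshold, or 0.27%, and no member did. Mrps28 had the smallest p among members in that test, with a mean change of -0.46 (limma adjusted p = 0.199). The next was Mrpl43, with a mean change of -0.26 (limma adjusted p = 0.329).

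The alleles were compared directly by the difference between the null and missense changes. No member passed the limma threshold, against 2 of all genes, or 0.0135%, and 1 member had an unadjusted p under 0.05, where 4.13% of all genes did. That member was Mrps10. It had 5.0 and 4.74 in null samples, against 4.60 and 4.65 in their wild types, a change of 0.25 (SE 0.16), while it was lower in missense samples. The difference was 0.61 (limma adjusted p = 1). The wild types of the missense set were also higher for Mrps10 than those of the null set, by 0.39 (SE 0.14; limma adjusted p = 0.557). With all wild types taken as 1 group, the difference was 0.22 (limma adjusted p = 0.865).

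**Figure D3:**
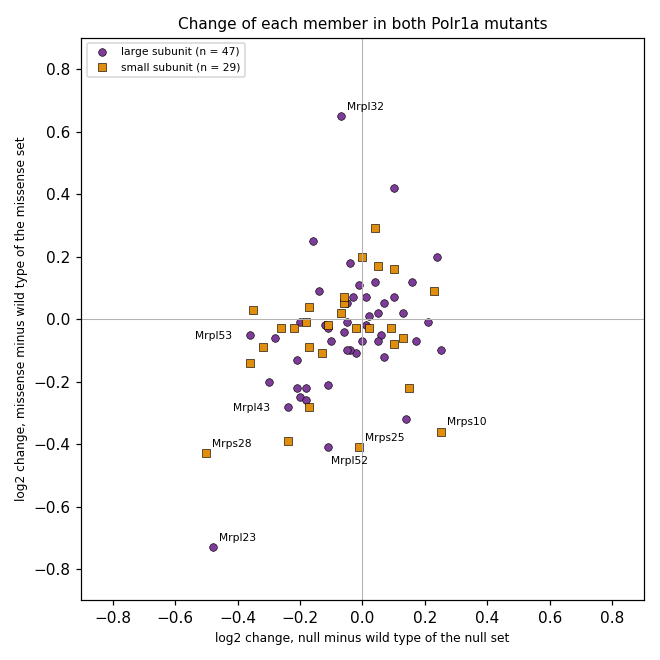
Each point is 1 member, with its log2 change in null samples on the horizontal axis and in missense samples on the vertical axis, both against wild types of the same title number; circles are large-subunit and squares small-subunit members. Most points lie within 0.4 of 0 on both axes, Mrps28 and Mrpl23 are at the lower left, Mrpl32 stands alone at the top and Mrps10 at the lower right.

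The wild types of both title numbers differed from each other as well. Of the large-subunit members, 13 were higher and 34 lower in wild types of the missense set than in those of the null set, with a median of -0.09, and of the small-subunit members 5 were higher and 24 lower, with a median of -0.08. The median over all genes was 0.02. No member passed the limma threshold, where 14 of all genes did, or 0.0946%. At an unadjusted limma p under 0.05, 2 members were higher and 1 lower, beside 4.94% and 2.43% of all genes. Mrpl3, a bacterial-type protein of the large subunit, had 6.63, 5.91 and 6.17 in wild types of the missense set, against 5.72 and 5.72 in wild types of the null set. The groups did not overlap, and the difference was 0.52 (SE 0.19; limma adjusted p = 0.557). Mrps17, a bacterial-type protein of the small subunit, had 5.64, 5.57 and 5.75, against 6.19 and 5.98, a difference of -0.43 (SE 0.14; limma adjusted p = 0.51). Mrps10 was the other of the 2 higher members.

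One wild type stood apart in the members. Replicate 1 of the null set had the highest level of all 10 samples for 24 of the 47 large-subunit members and 13 of the 29 small-subunit members, together 48.7% of members, and the lowest level for none. Over all genes it was the highest for 11.6%. Its median deviation from the mean of the 10 samples was 0.21 for the large and 0.20 for the small subunit, while replicate 2 of the same wild types was at -0.03 and -0.05. Replicate 2 of the missense samples was the lowest for 22 of the 76 members, against 9.66% of all genes, with median deviations of -0.12 and -0.14. Replicate 2 of the wild types of the missense set was the lowest for 16 members and for 15.4% of all genes, at -0.10 and -0.12. Both subunits had the same sign in each of these samples. Without replicate 1 of the null-set wild types, and so against their replicate 2 alone, the median difference between wild types was 0.01 for the large and 0.04 for the small subunit.

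The direction of the small null changes rested on that wild type and on the reference. With wild types of both title numbers as 1 group, the null medians were 0.04 for the large and 0.01 for the small subunit. Without replicate 1 of the wild types of the null set, their replicate 2 was the only reference left. Then 32 of 47 large-subunit members and 20 of 29 small-subunit members were higher in null samples, with medians of 0.11 and 0.13 in place of -0.04 and -0.06. Without replicate 2 instead, 15 of 47 and 7 of 29 were higher, with medians of -0.16 and -0.20. In the missense comparison, leaving out replicate 2 of the missense samples gave 22 of 47 and 18 of 29 members higher, with medians of -0.01 and 0.05 in place of -0.04 and -0.03. Leaving out replicate 2 of the wild types of the missense set instead gave 16 of 47 and 8 of 29 members higher, with medians of -0.08 and -0.07. No member passed the threshold in these missense cases.

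Members come from short transcripts, and in the samples that stood apart other short transcripts deviated in the same direction. The median transcript length was 1052 bases for members and 2282 bases for the 13865 genes whose symbol matched GENCODE M21, and 47 members fell into the shortest 25% of those genes. In replicate 1 of the wild types of the null set, the 3422 other genes of the shortest 25% had a median deviation of 0.07 and the 3462 of the longest 25% -0.11. The 47 members in the shortest 25% had 0.26 there. In replicate 2 of the missense samples the shortest and longest 25% were at -0.05 and 0.04, and in replicate 2 of the wild types of the missense set at -0.05 and 0.00. Such shifts were not limited to these samples: in replicate 2 of the wild types of the null set they were at -0.06 and 0.01. In null samples against wild types of the null set, the median change was -0.01 in the shortest and 0.06 in the longest 25%. Whether transcript length had a part in the members' values was not tested.

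**Figure D4:**
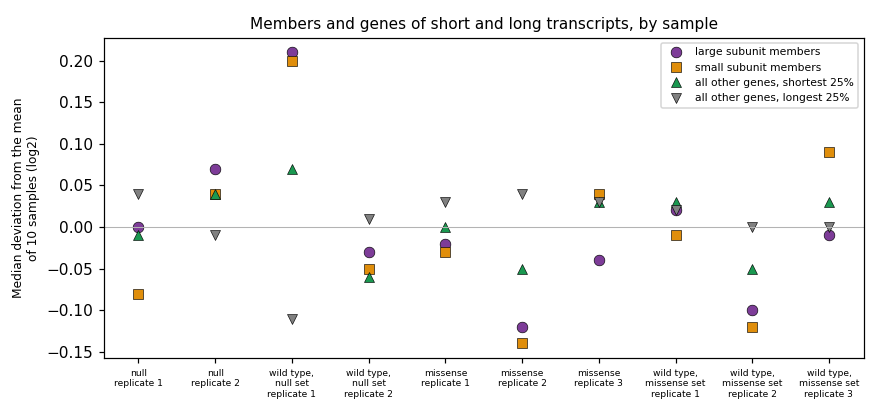
For each of the 10 samples, points give the median deviation from the mean of all samples, in log2 units, for large-subunit members, small-subunit members, and all other genes in the shortest and the longest 25% by transcript length. Members and genes of short transcripts are high in replicate 1 of the wild types of the null set, where genes of long transcripts are low, and the reverse holds in replicate 2 of the missense samples.

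Members with a bacterial counterpart and members particular to mitochondria were counted apart. In null samples the median change was -0.01 over 30 large-subunit members with a bacterial counterpart and -0.05 over 17 without one, and -0.08 over 16 and -0.04 over 12 such small-subunit members. Subunits follow the symbols here, so the 12 include Mrps18a and Mrps30, and Mrps36 is in neither class. In missense samples the medians were -0.06 and -0.03 for the large subunit and -0.03 and 0.03 for the small subunit. Mrpl12, which binds the mitochondrial polymerase Polrmt, had 5.97 and 5.98 in null samples, against 6.32 and 5.88 in wild types, and 5.90, 5.79 and 6.02 in missense samples, against 5.99, 5.82 and 5.95. Mrpl44, which carries a domain of the RNase III family, had changes of -0.04 (SE 0.18) in null and 0.18 (SE 0.14) in missense samples. Of the members whose proteins sit elsewhere, Mrps30 had a change of 0.00 (SE 0.14) in null and 0.20 (SE 0.11) in missense samples, and Mrps18a had -0.06 (SE 0.19) and 0.05 (SE 0.15). Mrps36 had -0.24 (SE 0.32) and -0.39 (SE 0.26), and the annotation lists 4 pseudogene copies of it with at least 95% identity, none with a row in the table.

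Mrpl23 had the largest spread of all members and shares its sequence with another row of the table. It had 0.95 and 2.47 in null samples, against 3.44 and 0.93 in wild types of the null set, and 1.58, 1.92 and 2.38 in missense samples, against 2.27, 3.49 and 2.30 in wild types of the missense set. The changes were -0.48 (SE 0.77) and -0.73 (SE 0.63), and the groups overlapped in both comparisons. Mrpl23-ps1, a processed pseudogene that matches it at 100% over 540 bases, had between 4.21 and 4.67 in every sample. The share of their summed level given to Mrpl23 ran from 7.14% to 35.6% over the samples. Summed, both rows changed by -0.11 in null and -0.05 in missense samples. Reads that fit both places cannot be assigned from these values, so the level of Mrpl23 is uncertain. Mrpl23-ps1 and this sum were chosen after their values had been seen. In all, 17 members have a pseudogene copy of at least 95% identity over 250 bases in the annotation, and Mrpl23-ps1 is the only such copy with a row of its own. Mrps10 is among them, with a copy at 97.9% over 573 bases. On the same strand, 6 members share an exact stretch of at least 100 bases with another gene, which has a row in the table for 1 of them.

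Promoter windows of members were searched for motifs of factors known to act on nuclear genes for mitochondria. Promoter windows of 300 bases, from 250 before to 50 after the start, were taken from RefSeq on GRCm38.p6 and were found for 67 of the 76 members, in 73 windows. The Ets core, CCGGAAG, to which Gabpa binds, occurred on either strand in 34.2% of the members' windows and in 15.1% of the 13822 windows of other measured genes. The Nrf1 motif, GCGCATGC, occurred in 11% and 4.7%, the Yy1 motif, AAGATGGCG, in 9.59% and 2.52%, and the E-box CACGTG in 9.59% and 9.35%. A gene with several starts has several windows. By gene, the E-box occurred in 5 of 67 members and in 1211 of 10780 other genes. The Ets core occurred in 25 and 1918 of them, the Nrf1 motif in 8 and 598, and the Yy1 motif in 7 and 335. Large-subunit windows held the Nrf1 motif in 15.2% and the Ets core in 30.4% of cases, small-subunit windows in 3.7% and 40.7%. Of the matches in members' windows, 9 of 29 Ets cores, 1 of 14 Nrf1 motifs, 5 of 7 Yy1 motifs and 0 of 7 E-boxes lay after the start. Matches were counted in every window, and overlapping matches on both strands were counted apart. The 7 E-boxes so counted lie in windows of 5 genes, with several windows of Mrpl2 among them. Such matches are descriptions of these letters and say nothing of binding. Windows are shown for the members with an unadjusted limma p under 0.05 in a mutant comparison, 6 genes and not Mrps28, whether or not they hold a motif. The 250 bases before the start are given along the gene's strand, at chr6:83108858-83109107 (plus strand) for Mrpl53, chr19:45006443-45006692 (minus strand) for Mrpl43, chr14:54426659-54426908 (plus strand) for Mrpl52, chr13:14613038-14613287 (minus strand) for Mrpl32, chr17:47368947-47369196 (plus strand) for Mrps10 and chr6:92184024-92184273 (minus strand) for Mrps25. Capitals mark the Ets core in Mrpl53, Mrpl43 and Mrpl52 and the Nrf1 motif in Mrpl32, read on either strand.
Mrpl53: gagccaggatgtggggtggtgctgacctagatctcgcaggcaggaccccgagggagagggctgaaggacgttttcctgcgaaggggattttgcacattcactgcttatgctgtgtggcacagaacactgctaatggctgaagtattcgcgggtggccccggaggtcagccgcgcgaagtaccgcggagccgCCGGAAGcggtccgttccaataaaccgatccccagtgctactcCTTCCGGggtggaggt
Mrpl43: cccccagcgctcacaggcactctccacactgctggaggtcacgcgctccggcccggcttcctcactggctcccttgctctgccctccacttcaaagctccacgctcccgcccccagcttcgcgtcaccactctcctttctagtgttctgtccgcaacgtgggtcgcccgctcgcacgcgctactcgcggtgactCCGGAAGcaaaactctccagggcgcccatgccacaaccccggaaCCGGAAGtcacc
Mrpl52: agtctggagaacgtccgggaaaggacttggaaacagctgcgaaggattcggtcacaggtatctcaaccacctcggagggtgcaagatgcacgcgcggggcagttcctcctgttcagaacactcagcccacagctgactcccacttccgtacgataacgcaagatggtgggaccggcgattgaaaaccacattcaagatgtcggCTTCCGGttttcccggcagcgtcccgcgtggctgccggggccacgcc
Mrpl32: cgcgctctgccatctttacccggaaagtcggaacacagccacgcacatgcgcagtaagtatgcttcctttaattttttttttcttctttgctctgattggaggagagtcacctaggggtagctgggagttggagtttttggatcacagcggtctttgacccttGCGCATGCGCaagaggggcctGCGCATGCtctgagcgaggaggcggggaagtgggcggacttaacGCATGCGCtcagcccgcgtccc
Mrps10: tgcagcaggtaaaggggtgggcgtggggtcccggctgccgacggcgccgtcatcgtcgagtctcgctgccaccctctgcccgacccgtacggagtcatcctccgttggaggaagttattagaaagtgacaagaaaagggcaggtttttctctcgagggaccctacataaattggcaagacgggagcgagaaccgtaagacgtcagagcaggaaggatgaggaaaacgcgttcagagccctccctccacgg
Mrps25: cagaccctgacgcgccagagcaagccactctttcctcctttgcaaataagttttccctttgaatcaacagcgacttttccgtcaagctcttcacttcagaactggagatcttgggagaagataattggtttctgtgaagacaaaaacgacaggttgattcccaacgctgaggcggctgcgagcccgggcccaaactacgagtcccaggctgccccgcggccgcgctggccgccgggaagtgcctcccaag
Mrpl53 and Mrpl43 hold 2 Ets cores each in these bases and Mrpl52 holds 1, Mrpl32 holds 4 Nrf1 motifs, of which 2 overlap in 1 run of capitals, and Mrps10 and Mrps25 hold 0 of the 4 motifs.

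Nrf1 itself, a factor that activates nuclear genes for mitochondria, had 6.49 and 6.17 in null samples, against 6.58 and 6.55, a change of -0.23 (SE 0.18), and -0.08 (SE 0.15) in missense samples. Of the 11 listed transcription factors of this kind, 6 were higher and 5 lower in null, and 7 higher and 4 lower in missense samples. The lowest in null samples was Ppargc1a, a coactivator of such genes, with 2.67 and 2.28 against 2.96 and 3.90, a change of -0.95 (SE 0.47; limma adjusted p = 0.651). Its change in missense samples was 0.10 (SE 0.38). The highest of the 11 in both mutants was Ppargc1b, a related coactivator, with changes of 0.77 in null and 0.47 in missense samples. None of the 11 was called in either mutant or had an unadjusted p under 0.05.

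The 5 mitochondrial ribosomal proteins with other symbols, Dap3, Ptcd3, Chchd1, Aurkaip1 and Gadd45gip1, also changed little. Their changes ran from -0.08 to 0.08 in null and from -0.20 to 0.10 in missense samples, and none was called. Of the 25 measured factors that assemble the mitochondrial ribosome or modify its RNA, 12 were higher and 13 lower in null, and 9 higher and 16 lower in missense samples, again with none called. The largest changes in both mutants were those of Dhx30, an RNA helicase needed for assembly of the mitochondrial ribosome. It had 5.39 and 5.64 in null samples, against 3.30 and 4.23 in wild types of the null set, and 4.10, 4.66 and 5.46 in missense samples, against 1.33, 2.11 and 3.29 in wild types of the missense set. Every mutant sample was above every wild type of its set. The changes were 1.75 (SE 0.58; limma adjusted p = 0.411) and 2.50 (SE 0.47; limma adjusted p = 0.546). In the test of the mean of both changes, added after the data had been seen, Dhx30 had 2.13 (SE 0.37; limma adjusted p = 0.0517). The wild types of the missense set were lower than those of the null set, by 1.52 in mean log2 level. Without replicate 1 of the wild types of the null set, and so against replicate 2 alone, the null change was 1.29. Its transcripts share 123 bases with those of Smarcc1 on the other strand. Mrm1 was the other of these factors with an unadjusted limma p under 0.05 in null samples. It had 3.33 and 4.17 there, against 3.16 and 2.85 in wild types of the null set. The groups of Mrm1 did not overlap, and the change was 0.74 (SE 0.29; limma adjusted p = 0.511). Its change in missense samples was -0.25 (SE 0.24).

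Mitochondrial translation factors, 15 of them, showed 7 higher and 8 lower in null and 5 higher and 10 lower in missense samples, and the 20 aminoacyl-tRNA synthetases of mitochondria 12 and 8 and then 11 and 9. Mtrf1l, a release factor, had 4.17, 4.12 and 3.95 in missense samples, against 3.62, 3.44 and 3.38 in wild types, a change of 0.60 (SE 0.20; limma adjusted p = 0.884). All missense samples were above all their wild types. Polrmt had 5.72, 5.28 and 5.63 in missense samples, against 5.28, 5.01 and 5.23, a change of 0.37 (SE 0.16; limma adjusted p = 0.884), and 0.10 (SE 0.19) in null samples. None of these lists, nor the 8 measured genes for transcription and replication of mitochondrial DNA, held a called gene in either mutant.

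The mitochondrial ribosome translates the 13 protein-coding RNAs of mitochondrial DNA, and all 13 were measured. The proteins made from them were not measured. In null samples 10 were higher and 3 lower, with a median of 0.24, and in missense samples 10 were higher and 3 lower, with a median of 0.05. The highest in null samples was mt-Co3, a subunit of cytochrome c oxidase, with 11.13 and 11.55 against 10.60 and 10.45. The groups did not overlap, and the change was 0.82 (SE 0.20; limma adjusted p = 0.211). It was 0.64 higher in wild types of the missense set than in those of the null set (SE 0.19; limma adjusted p = 0.488). In missense samples it had 11.55, 11.53 and 11.16, against 10.85, 11.49 and 11.14, a change of 0.25 (SE 0.17). The next in null samples was mt-Nd2, a subunit of complex I, with 10.14 and 10.04 against 9.68 and 9.85, a change of 0.33 (SE 0.12; limma adjusted p = 0.456). Changes of the 13 ran from -0.27 to 0.82 in null samples. In missense samples they ran from -0.40 for mt-Atp6 to 0.40 for mt-Atp8. There mt-Atp6 had 11.19, 10.96 and 10.41, against 11.18, 11.45 and 11.14 in wild types (SE of the change 0.17; limma adjusted p = 0.884). None of the 13 was called in either mutant.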

How the data were processed

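Total RNA of mouse telencephalon was measured in 10 samples. The authors deposited 1 table of filtered and normalized values, which hold log2 levels. The unit was read from the values, since back-transformed samples sum to 1000453 to 1000891. The lowest value in the table was -3.16. The build is GRCm39, per the submitters' processing notes; no source used here names the aligner, counter, annotation or depth. One row without a name was left out, and 14796 genes were tested. Samples were grouped by genotype and first title number, read from the labels. A limma 3.58.1 fit in R 4.3.3 used 4 group means, a variance trend and 2-sided tests, with 6 residual and 4.83 prior degrees of freedom and Benjamini-Hochberg adjustment over all genes, and was tested on simulated data. No gene was filtered, and no list received a test. The members and lists were chosen with earlier results of these data known. Members were named by smallest p per comparison, subunit and direction, by lack of overlap in both mutants, or by spread within wild types. Those with an unadjusted p under 0.05 are given in full. Mrpl12, Mrps18a and Mrps36 were named outside this rule, for what their proteins do, after values had been seen, as was Ppargc1b, the highest of its list. Copies and overlaps were found with BLAST+ 2.17.0 in GENCODE M21 transcripts, another build, as matches of at least 95% over 250 bases in pseudogenes, or exact ones over 100 bases. Python 3.11.15, pandas 2.3.3, SciPy 1.17.1 and matplotlib 3.10.9 did the rest.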

Additional observations from a re-analysis of the deposited data

Results flagged for a closer look

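Mrps10 had opposite signs in the mutants. Both null samples lay above both wild types of the null set, and all 3 missense samples lay below all 3 wild types of the missense set. The null change minus the missense change was 0.61 on the log2 scale, and the limma test of this difference gave an adjusted p = 1. Over the alternatives that adjusted p ran from 0.865 to 1. Of all genes, 139, or 0.939%, also separated in opposite directions without overlap. The groups of 2 or 3 samples are too small to test single samples for standing apart.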

How the results depend on the processing

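No member passed the threshold in any of the 4 comparisons under any alternative, adjusted p under 0.1 included. The count of all genes called varied. In the null comparison it was 24, and it was 6 without a variance trend, 59 with wild types as 1 group, 0 with samples of 1 title number alone, 43 at adjusted p under 0.1, and 2 to 23 without 1 sample. In the missense comparison it was 3, and 2 to 10 without 1 sample. The difference between alleles had 2, and 1 with samples centred on their median, 0 without a trend, 9 with wild types as 1 group and 1 to 10 without 1 sample. Between wild types it was 14, and 8 with the filter on low levels and 7 to 21 without 1 sample. The mean of both mutant changes, added after seeing the data, called 40.

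Directions of medians depended on single samples and, in null samples, also on the reference. With wild types as 1 group, the null medians were 0.04 for the large and 0.01 for the small subunit. The missense medians were then -0.06 and -0.08. Without 1 sample, the null median ran from -0.16 to 0.11 for the large and -0.20 to 0.13 for the small subunit. The missense median ran from -0.08 to -0.01 and -0.08 to 0.05. That of the difference ran from -0.12 to 0.13 and -0.19 to 0.07, and that between wild types from -0.22 to 0.01 and -0.20 to 0.04. The upper null and wild-type ends are without replicate 1 of the wild types of the null set and the lower ends without their replicate 2. With both samples that stand apart left out, the medians of the difference were 0.08 and 0.04, and with wild types as 1 group the small-subunit one was 0.07, against -0.08. Without 1 sample, the summed level differed by -10.2% to 5.74% in null samples for the large and -13.7% to 4.8% for the small subunit, and between wild types by -12.5% to 3.01% and -15.1% to 3.16%. In missense samples it differed by -4.82% to 0.113% and -6.83% to -0.562%. Leaving out both samples gave the upper values of these sums, and of the null and wild-type medians. The Polr1a change in missense samples was -0.08, 0.01 with wild types as 1 group and -0.22 to 0.13 without 1 sample. The cause of these shifts was not tested. A lone sample left in a group was assumed to vary like the other groups. No paired analysis was possible because the labels give no replicate numbers shared between groups. With no read counts, the depth behind each value is unknown.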
